A study of Mus musculus with 30 samples.

Results

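Korean Red Ginseng water extract (RGW) and the non-saponin fraction (NSFr) were compared in C2C12 myotubes that were then exposed to D-galactose, across all expressed genes. Of the 30 RNA-seq libraries of the series, 6 enter this comparison: 3 labelled as water extract plus D-galactose (RGW_Dgal) and 3 labelled as non-saponin fraction plus D-galactose (NSFr_Dgal), chosen by their column labels. C2C12 is a mouse myoblast line of wildtype genotype, so all libraries come from 1 line. The myoblasts were grown to confluence and kept in medium with 2% serum for 5 to 7 days, in which they fuse into multinucleated myotubes. Both preparations were given at 100 µg/mL for 12 h, and D-galactose followed at 20 mg/mL for 24 h. The groups used beside these 2 were D-galactose alone (Dgal), each preparation alone (RGW and NSFr, 100 µg/mL, labelled 12 h), the saponin fraction alone (SFr, 100 µg/mL), ginsenoside Rb2 alone (Rb2, 20 µM) and the vehicle control, with 3 libraries each. The series' design text calls the libraries biological replicates. The labels do not say that they came from separate cultures or days, so p-values measure the spread between these libraries, which may be technical in part. Equal mass of extract and fraction does not mean equal amounts of any compound, and the labels give no composition.

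An excess of D-galactose is given to cells and animals as a model of ageing. Ginseng extracts hold saponins, called ginsenosides, and non-saponin material such as polysaccharides. Myotubes have left the cell cycle, and a C2C12 culture also holds mononucleated cells that did not fuse and some of which can still divide. Genes of the G2 phase and of mitosis, such as those for cyclins A and B, mitotic kinases and kinetochore proteins, are switched on together in dividing cells. The DREAM complex and the complexes of MYBL2 and FOXM1 act on these genes, in part through a promoter element called CHR and through nearby CCAAT boxes. Chemokines are small secreted proteins that draw immune cells, and muscle cells make several of them under NF-kB control.

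The 6 libraries held 24803716 to 29235530 counts. The values given here for genes are in CPM, which sets the counts of each library to a common depth with TMM factors. CPM are not divided by gene length, so levels are compared between groups and not between genes. Library 3 of RGW_Dgal stood apart from its group: the chi-square per degree of freedom against its partners was 12.0 and 10.9, and 2.48 between those partners. It differed in long transcripts. The median log2 deviation of 619 genes with transcripts of at least 8000 bases, minus that of 1747 genes under 2000 bases, was 0.149, 0.116 and -0.163 in the RGW_Dgal libraries, against -0.099, -0.0085 and 0.051 in NSFr_Dgal. Titin, the giant spring of the sarcomere, showed it most plainly, with 3420.0, 3785 and 2238 CPM in RGW_Dgal, against 1629, 2021 and 2835 CPM in NSFr_Dgal. Myotube markers were present in all 6 libraries: their summed level over 7 genes was 20435, 20778 and 20438 CPM in RGW_Dgal and 19150.2, 19184 and 19979.6 CPM in NSFr_Dgal. That is a set whose groups did not overlap, although 0 of its 7 genes were called between them. Titin is among the 7, and it ranged from 2238 to 3785 CPM within RGW_Dgal and from 1629 to 2835 CPM within NSFr_Dgal. The separation of these sums therefore cannot be read apart from the titin values above. Markers of macrophages and of endothelial cells stayed low, with summed levels under 9 CPM in each of the 6 libraries and 5 tested genes in each list. The other marker lists were not as low. The summed level of 6 bone and cartilage genes was 1444, 1362 and 1404 CPM in RGW_Dgal, against 1319, 1352 and 1363 CPM in NSFr_Dgal, and that of 9 fibroblast genes 308, 308 and 314 CPM in RGW_Dgal, against 308, 339 and 324 CPM in NSFr_Dgal. Both overlapped between the groups. That of 3 fat cell genes was 22.7, 22.5 and 23.4 CPM in RGW_Dgal, against 21.9, 21.0 and 21.1 CPM in NSFr_Dgal, and did not overlap. No gene of these 5 lists was called between the groups, and their part in the results was not tested. Mitochondrially encoded genes took 1.34% to 1.69% of counts in RGW_Dgal and 1.29% to 1.53% in NSFr_Dgal.

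**Figure D1:**
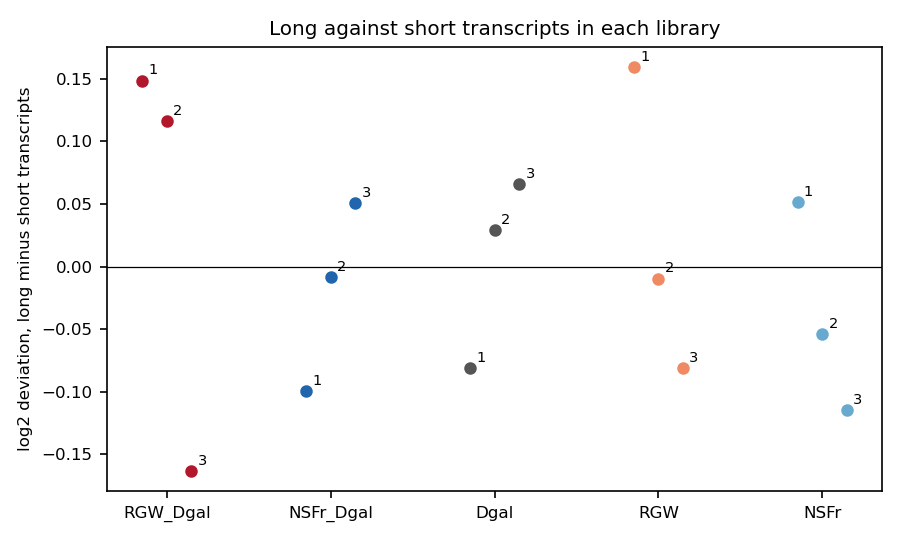
Median log2 deviation of long transcripts (at least 8000 bases) minus that of short ones (under 2000 bases) on the vertical axis, for the 3 libraries of each group, with the replicate number beside each point. Library 3 of RGW_Dgal lies at -0.163, while the other libraries of that group lie at 0.149 and 0.116 and those of NSFr_Dgal between -0.099 and 0.051.

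Between the preparations under D-galactose, genes of mitosis and 3 chemokine genes were lower after the water extract, and a small mixed set of genes was higher. Of 12184 genes tested, 78 were called at an edgeR adjusted p under 0.05, which is 0.64%. Of these, 24 were higher in RGW_Dgal (0.197%) and 54 were lower (0.443%), by DESeq2 43 and 58. With the trend of each library against transcript length removed, an alternative added after seeing the data, the calls were 68 and 89 and included all 78. Most changes were small: 16 called genes differed at least 1.5-fold and 4 at least 2-fold, namely Cxcl1, Cxcl5 and Ccl2, which were lower, and Yy2, which was higher. In all 78 called genes the libraries of the groups did not overlap. Over all tested genes, 7.49% were separated in that way upwards and 8.22% downwards. At an unadjusted p under 0.05 there were 1126 genes, and 19 of the called genes averaged under 5 CPM. The count was not stable, and it fell whichever of the 6 libraries was left out, which leaves 2 in a group. It was 42, 18 and 47 without RGW_Dgal replicates 1, 2 and 3. Without NSFr_Dgal replicates 1, 2 and 3 it was 13, 53 and 23. The loss of a replicate and the part of single libraries in these counts were not told apart. A fit with only these 6 libraries gave 29 calls. Among the genes called over all libraries, 29 were named by a rule; of these, Ccna2, Kif20a, Foxm1, Car3 and Ccl2 were called under every alternative, and none changed sign.

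**Figure D2:**
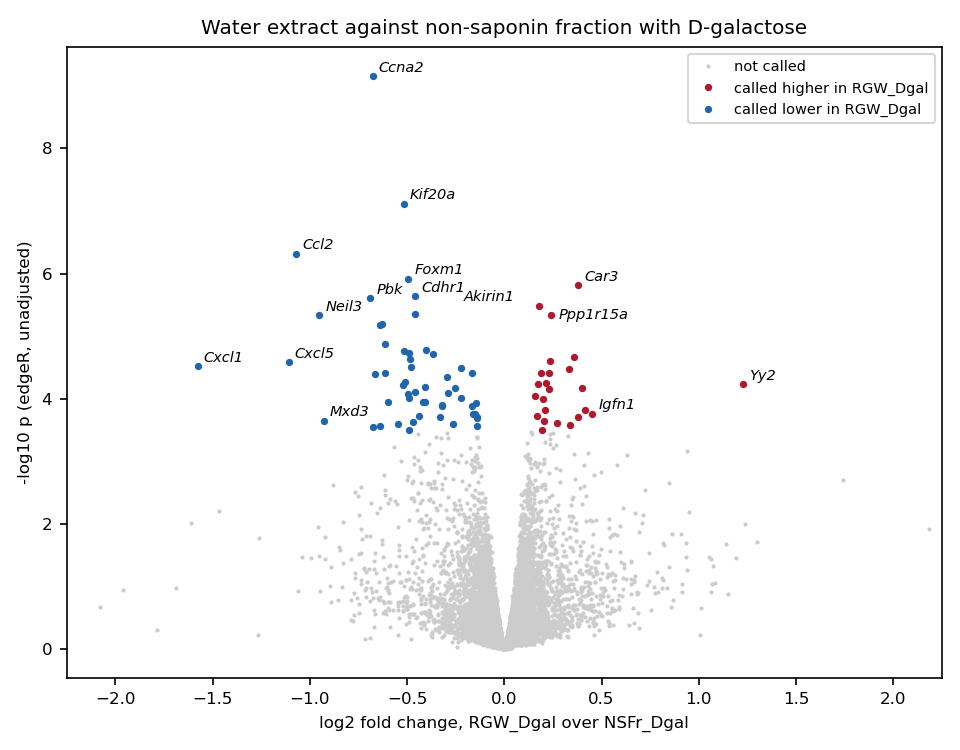
Log2 fold change, RGW_Dgal over NSFr_Dgal, against -log10 of the unadjusted edgeR p for the tested genes; 1 gene lies outside the horizontal axis. Red points are the 24 genes called higher and blue points the 54 called lower in RGW_Dgal; Ccna2 has the smallest p and Cxcl1 the largest called fold change (-1.58).

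Within the proliferation list, 15 of 28 tested genes were lower in RGW_Dgal and 0 were higher, with a median log2 fold change of -0.47, beside 0.443% of all tested genes called lower and an all-gene median of 0.00027. All 28 had a negative sign, and in 25 the libraries of the groups did not overlap. Over all tested genes, 8.22% were separated downwards. The summed level of the list was 241, 225 and 218 CPM in RGW_Dgal, against 319, 281 and 304 CPM in NSFr_Dgal. Every RGW_Dgal library lay below every NSFr_Dgal library. The number of called members was 11, 4 and 12 without RGW_Dgal replicates 1, 2 and 3, 5, 16 and 7 without NSFr_Dgal replicates 1, 2 and 3, and 6 in a fit with only the 6 libraries. It was 18 with the trend against transcript length removed, the alternative added after seeing the data. In bulk RNA, fewer cells of a type and less RNA per cell cannot be told apart, so a lower level of these genes may stand for either. Markers of undifferentiated myoblasts moved in the same direction by much less. Their summed level was 2403, 2366 and 2389 CPM in RGW_Dgal and 2473, 2479.7 and 2470.3 CPM in NSFr_Dgal, 0 of 9 tested genes were called (1, which was lower, with the trend against transcript length removed), none of the 9 was at 0, and their median log2 fold change was -0.039. Of the 9 genes, 8 were negative and 1 positive, and their summed levels did not overlap between the groups. Pax7, the satellite cell factor, changed little, with a mean of 39.6 ± 1.14 CPM in RGW_Dgal and 39.9 ± 0.781 CPM in NSFr_Dgal (SD, n = 3). The part of those cells in the result was not tested.

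Ccna2 had the smallest p of all tested genes. It encodes cyclin A2, which drives S phase and the entry into mitosis, and lies at chr3:36564865-36572150 on GRCm38. It had 10.4, 11.3 and 11.1 CPM in RGW_Dgal, against 18.2, 16.1 and 18.3 CPM in NSFr_Dgal. The groups were far apart, and RGW_Dgal stood at 62.4% of NSFr_Dgal, a log2 fold change of -0.68 ± 0.079 (standard error, edgeR adjusted p = 8.40e-06). Ccnb1, one of the B cyclins that activate CDK1 at mitosis, had 6.56, 6.31 and 6.85 CPM in RGW_Dgal, against 10.9, 9.13 and 8.05 CPM in NSFr_Dgal. Its groups were separated, with a log2 fold change of -0.51 ± 0.11 (edgeR adjusted p = 0.0196). Ccnb2, the other B cyclin, had 5.82, 4.95 and 6.52 CPM in RGW_Dgal, against 7.96, 7.57 and 9.09 CPM in NSFr_Dgal (log2 fold change -0.51 ± 0.10). Cdk1 itself, the kinase these cyclins bind, did not pass: it had 15.8, 13.5 and 15.5 CPM in RGW_Dgal, against 17.5, 15.4 and 15.3 CPM in NSFr_Dgal, groups that overlapped, and a log2 fold change of -0.11 ± 0.072. The calls of Ccnb1 and Ccnb2 were lost in 4 and 3 of the 13 alternatives, in each case also in the fit with only the 6 libraries.

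Among the regulators, Foxm1, the transcription factor that switches on G2 and mitotic genes, was lower. It had 8.70, 8.47 and 7.81 CPM in RGW_Dgal, against 12.5, 10.9 and 11.9 CPM in NSFr_Dgal, with no overlap and a log2 fold change of -0.49 ± 0.083 (edgeR adjusted p = 0.00367). Mybl2, a partner of the same programme, had a log2 fold change of -0.64 ± 0.21 and did not pass the test (adjusted p = 0.228). Its levels were close to 1 CPM in Dgal and RGW_Dgal, which limits the precision. Of the mitotic kinases, Pbk, Bub1, Aurkb, Plk1 and Aurka were called lower and Ttk and Bub1b were not. Pbk, a kinase active in mitosis, had 3.47, 3.52 and 3.34 CPM in RGW_Dgal, against 7.14, 4.70 and 4.93 CPM in NSFr_Dgal. The NSFr_Dgal value of 7.14 CPM was well above the other libraries of that group, and without replicate 1 of NSFr_Dgal the log2 fold change moved to -0.49 with no call. Bub1, a kinase of the spindle checkpoint, had 3.71, 3.24 and 3.62 CPM in RGW_Dgal, against 5.47, 4.94 and 5.93 CPM in NSFr_Dgal (log2 fold change -0.63 ± 0.12, adjusted p = 0.00622). Plk1 and the aurora kinase genes Aurka and Aurkb, which build the spindle and separate the chromosomes, had log2 fold changes of -0.47 ± 0.11, -0.44 ± 0.10 and -0.61 ± 0.13.

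Motor and kinetochore genes showed the same direction. Kif20a, a kinesin of the late mitotic spindle, had 13.3, 12.2 and 11.5 CPM in RGW_Dgal, against 18.5, 16.5 and 18.1 CPM in NSFr_Dgal. Its highest RGW_Dgal library lay below the lowest NSFr_Dgal library, and the log2 fold change was -0.52 ± 0.075 (edgeR adjusted p = 4.66e-04). Cenpe, the kinetochore motor, had a log2 fold change of -0.50 ± 0.11, and Ndc80 and Nuf2, partners in the complex that holds microtubules, had -0.64 ± 0.16 and -0.48 ± 0.099. Nuf2 had 5.04, 4.50 and 4.87 CPM in RGW_Dgal, against 7.73, 5.66 and 6.74 CPM in NSFr_Dgal, and its groups were separated. Nusap1 and Tpx2, which organise spindle microtubules, had log2 fold changes of -0.49 ± 0.099 and -0.36 ± 0.073. The most used markers of division did not pass the test in the main fit. Mki67, the gene of the Ki-67 antigen, had 26.2, 24.2 and 17.9 CPM in RGW_Dgal, against 30.9, 26.5 and 30.8 CPM in NSFr_Dgal. The groups did not overlap, yet the log2 fold change, -0.36 ± 0.17, did not pass (adjusted p = 0.533). Top2a, the topoisomerase of dividing cells, had 29.8, 25.8 and 24.1 CPM in RGW_Dgal, against 37.5, 31.6 and 35.4 CPM in NSFr_Dgal and a log2 fold change of -0.39 ± 0.097 (edgeR adjusted p = 0.0682). With the trend against transcript length removed, Top2a was called (edgeR adjusted p = 0.0401) and Mki67 was not (0.145). Ube2c, Cenpf and Cdk1 were the 3 members whose libraries overlapped.

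**Figure D3:**
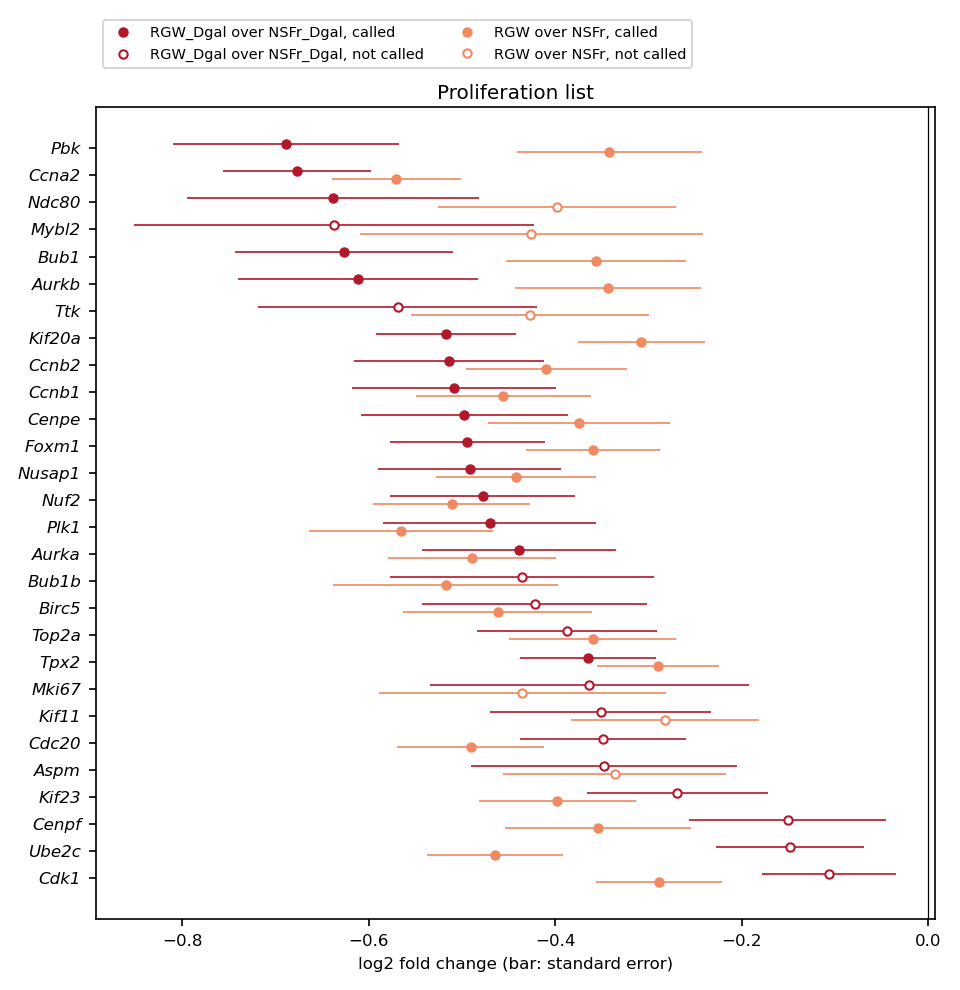
Log2 fold change (horizontal, bars are standard errors) of the 28 proliferation genes for RGW_Dgal over NSFr_Dgal in dark red and for RGW over NSFr without D-galactose in orange; filled points were called. Every point lies left of 0, with Pbk lowest in the dark red set at -0.69 and Cdk1 nearest 0 at -0.11.

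Set beside D-galactose alone, these genes lay near the Dgal level in RGW_Dgal and above it in NSFr_Dgal. The 2 comparisons share the Dgal libraries with each other and their own libraries with the comparison above, so their values are given side by side only. The summed proliferation level in Dgal was 228, 202 and 220.5 CPM, which the RGW_Dgal libraries overlapped and all 3 NSFr_Dgal libraries exceeded. For RGW_Dgal over Dgal, 0 of the 28 genes were called and the median log2 fold change was 0.064, where 617 genes were called in all (5.06%), 307 higher (2.52%) and 310 lower (2.54%). For NSFr_Dgal over Dgal, 21 were called higher and 0 lower with a median of 0.51, where 771 genes were called in all (6.33%), 427 higher (3.5%) and 344 lower (2.82%). Ccna2 had 10.2, 10.3 and 12.0 CPM in Dgal. Its log2 fold change over Dgal was 0.0088 ± 0.087 in RGW_Dgal and 0.69 ± 0.081 in NSFr_Dgal (edgeR adjusted p = 1.33e-06 for the second). Kif20a had 12.6, 11.5 and 13.4 CPM in Dgal, with log2 fold changes of -0.025 ± 0.081 in RGW_Dgal and 0.49 ± 0.076 in NSFr_Dgal. Foxm1 had 8.22, 8.21 and 7.82 CPM in Dgal, with 0.047 ± 0.091 in RGW_Dgal and 0.54 ± 0.086 in NSFr_Dgal. Ccna2 and Foxm1 stayed below the vehicle control in all 3 groups; in control, Ccna2 had 25.9, 25.0 and 24.5 CPM and Foxm1 15.6, 16.9 and 15.8 CPM.

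Promoters of the proliferation list were read for the letters of the CHR core and the CCAAT box. The list holds genes of G2 phase and mitosis, the genes tied to these elements above. A high share in it was therefore likely beforehand and is not a result of these data. RefSeq promoters on GRCm38.p6, from 250 bases before to 50 after the start, matched 22 of the 28 members and 62 of the 78 called genes. TTTGAA, the CHR core, stood on either strand in 15 of the 22 (68.2%), against 14.1% of 9683 promoters of all tested genes. CCAAT stood in 17 of 22 (77.3%), against 43.0% of all, and both stood in 14 of 22 (63.6%), against 5.86%. Among the list members called lower, 4 of 9 promoters held TTTGAA, against 11 of 13 of those not called, so the letters did not mark the called members. Of all genes called lower 18 of 43 held it, and of those called higher 3 of 19. Ccnb2 and Hmmr are shown because they hold both motifs at the usual spacing near the start, and Nuf2 because it fell by a like amount with neither. Capitals mark TTTGAA and CCAAT, with CCAAT written as ATTGG where it is read from the other strand. The Ccnb2 promoter (chr9:70421505-70421804, minus strand) has TTTGAA starting 4 bases after the gene's start and 167 before it, with CCAAT 87, 54 and 21 bases before. The Hmmr promoter (chr11:40733388-40733687, minus strand) has TTTGAA 8 bases after the start and ATTGG at 172, 129, 96, 47 and 20 bases before. The Nuf2 promoter is chr1:169531415-169531714, minus strand. A match describes the letters in this window and is not a measured site.
Ccnb2: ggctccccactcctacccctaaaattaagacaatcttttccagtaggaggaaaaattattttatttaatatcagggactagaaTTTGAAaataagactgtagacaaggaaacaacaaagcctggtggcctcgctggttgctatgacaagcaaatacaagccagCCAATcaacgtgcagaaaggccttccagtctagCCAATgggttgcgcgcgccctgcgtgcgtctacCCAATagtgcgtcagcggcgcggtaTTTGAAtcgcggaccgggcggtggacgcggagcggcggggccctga
Hmmr: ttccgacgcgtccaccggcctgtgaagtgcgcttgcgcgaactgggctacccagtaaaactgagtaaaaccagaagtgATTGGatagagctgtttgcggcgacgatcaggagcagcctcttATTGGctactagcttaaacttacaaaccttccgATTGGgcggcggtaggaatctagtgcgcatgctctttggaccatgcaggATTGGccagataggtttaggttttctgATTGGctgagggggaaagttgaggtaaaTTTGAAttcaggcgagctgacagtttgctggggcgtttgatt
Nuf2: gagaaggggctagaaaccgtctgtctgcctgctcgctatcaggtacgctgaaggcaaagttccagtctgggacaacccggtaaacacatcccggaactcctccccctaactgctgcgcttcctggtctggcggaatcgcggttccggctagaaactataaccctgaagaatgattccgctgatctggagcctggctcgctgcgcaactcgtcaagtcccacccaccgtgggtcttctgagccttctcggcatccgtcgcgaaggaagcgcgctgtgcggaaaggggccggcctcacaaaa

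The list of DNA replication held no called gene. Of 30 tested S phase genes 0 were called, with a median log2 fold change of -0.12. Of the 30, 26 were negative and 10 were lower at an unadjusted p under 0.05. Over all 12184 tested genes, these counts were 6070 and 561. The summed level of the list was 580.3, 560.0 and 569.8 CPM in RGW_Dgal, against 636, 589 and 603 CPM in NSFr_Dgal. The groups did not overlap. Mcm5, a subunit of the replicative helicase, had 5.31, 4.25 and 4.55 CPM in RGW_Dgal, against 7.18, 5.32 and 6.74 CPM in NSFr_Dgal, a log2 fold change of -0.44 ± 0.14 that missed the threshold (edgeR adjusted p = 0.172). Pcna, the sliding clamp of the polymerase, had a log2 fold change of -0.094 ± 0.054, and E2f1, a driver of S phase genes, 0.047 ± 0.069. Whether the S phase and mitotic lists differ in size of change was not tested. Cdkn1a, which encodes the p21 inhibitor of cyclin-dependent kinases, had 1897, 1912 and 1991 CPM in RGW_Dgal, against 2056, 1949 and 1956 CPM in NSFr_Dgal, groups that overlapped, and a log2 fold change of -0.040 ± 0.038. Of 29 p53 target genes, 1 was called: Gtse1, which is also a gene of G2 phase, was lower (-0.64 ± 0.12).

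Further genes of division outside the list were among the largest falls. Hmmr, whose product binds the spindle and hyaluronan, lies at chr11:40701395-40733422 and had 6.99, 6.94 and 5.60 CPM in RGW_Dgal, against 10.1, 9.34 and 10.5 CPM in NSFr_Dgal. The groups were separated, with a log2 fold change of -0.61 ± 0.12 (edgeR adjusted p = 0.0114). Prr11 (log2 fold change -0.52 ± 0.11), Ckap2 (-0.49 ± 0.11), a spindle microtubule gene, and Ncapg (-0.49 ± 0.099), a condensin subunit, followed, and each lost its call in 5 of the 13 alternatives. The genes in the rest of this paragraph were chosen after their values were seen. Neil3, a DNA glycosylase of dividing cells, had 0.898, 0.907 and 0.805 CPM in RGW_Dgal, against 1.64, 1.87 and 1.54 CPM in NSFr_Dgal (log2 fold change -0.95 ± 0.17). Mxd3, a member of the MAX network expressed in proliferating cells, had 1.25, 0.976 and 1.57 CPM in RGW_Dgal, against 3.01, 2.01 and 2.20 CPM in NSFr_Dgal (-0.93 ± 0.22). Both were low, and their groups did not overlap. Anln, the anillin of the cleavage furrow, had 23.8, 24.7 and 20.7 CPM in RGW_Dgal, against 34.8, 29.6 and 30.7 CPM in NSFr_Dgal (-0.46 ± 0.081, edgeR adjusted p = 0.00513), again without overlap. Kif2c, Cenpm, Cenpi, Kntc1, Shcbp1, Spag5, Tacc3, Ect2, Prc1, Ncapd2 and Asf1b were also called lower, with log2 fold changes between -0.68 and -0.26.

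The largest falls by fold were in 3 chemokine genes. Of 27 tested genes of the list of chemokines and senescence-associated secretion, 3 were lower (11.1%, against 0.443% of all tested genes) and 0 higher, with a median log2 fold change of -0.050. Ccl2, the chemokine that attracts monocytes, lies at chr11:82035571-82037453 and had 1.37, 1.36 and 1.05 CPM in RGW_Dgal, against 2.93, 2.42 and 2.66 CPM in NSFr_Dgal. Every RGW_Dgal library was below every NSFr_Dgal library, with a log2 fold change of -1.07 ± 0.17 (edgeR adjusted p = 0.00195). Cxcl5, a neutrophil attractant (chr5:90759360-90761624), had 0.546, 0.767 and 0.604 CPM in RGW_Dgal, against 1.17, 1.64 and 1.35 CPM in NSFr_Dgal (-1.11 ± 0.23, adjusted p = 0.0146). Cxcl1, another neutrophil attractant (chr5:90891241-90893115), had 0.312, 0.139 and 0.443 CPM in RGW_Dgal, against 0.781, 0.886 and 0.963 CPM in NSFr_Dgal (-1.58 ± 0.33, adjusted p = 0.0155). All 3 genes were separated between the groups at levels under 3 CPM, and 3 counts corresponded to 0.103 to 0.121 CPM in these libraries. Cxcl1 therefore rests on few counts: its adjusted p reached 0.181 without RGW_Dgal replicate 2 and its log2 fold change moved between -1.97 and -1.21 over the alternatives. Cxcl5 lost its call in 4 of 13 alternatives.

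Other secreted factors of the list did not pass, though the list leaned downwards. Of its 27 tested genes, the 3 called included, 19 were negative and 8 positive. At an unadjusted p under 0.05, 8 were lower and 1 higher. Over all 12184 tested genes, 6070 were negative, and 561 were lower and 565 higher at that level. Ccl7, a neighbour of Ccl2 that also attracts monocytes, had 5.31, 4.99 and 5.19 CPM in RGW_Dgal, against 5.23, 7.63 and 6.09 CPM in NSFr_Dgal, a log2 fold change of -0.30 ± 0.10 (edgeR adjusted p = 0.233). Cxcl12 had -0.13 ± 0.036 and Timp1, an inhibitor of matrix proteases, -0.14 ± 0.041, while Il6, which was under 1 CPM on average, had -0.069 ± 0.27 and Gdf15, a stress cytokine, 0.074 ± 0.14. In Dgal, Ccl2 had 0.849, 1.16 and 1.28 CPM, so that RGW_Dgal overlapped it and NSFr_Dgal lay above it. Over Dgal, the log2 fold change of Ccl2 was 0.19 ± 0.21 in RGW_Dgal and 1.26 ± 0.18 in NSFr_Dgal (edgeR adjusted p = 2.81e-05 for the second). That of Cxcl5 was 0.80 ± 0.32 in RGW_Dgal and 1.91 ± 0.27 in NSFr_Dgal (adjusted p = 0.155 and 1.87e-05). That of Cxcl1 was 0.65 ± 0.48 in RGW_Dgal and 2.22 ± 0.37 in NSFr_Dgal, against Dgal libraries at 0.179, 0.0892 and 0.272 CPM, about the level of a few counts. Genes of NF-kB feedback (0 of 16 called, median -0.000043) and of polysaccharide and Toll-like receptor sensing (0 of 13, median 0.00060) did not pass either. Nfkbia, the inhibitor that NF-kB itself switches on, had 18.8, 20.6 and 20.8 CPM in RGW_Dgal, against 19.8, 20.8 and 21.3 CPM in NSFr_Dgal, and Tlr4, the receptor of bacterial endotoxin, had 53.9, 50.3 and 45.2 CPM in RGW_Dgal, against 48.8, 50.2 and 49.4 CPM in NSFr_Dgal. Both overlapped between the groups. The promoter of Cxcl1 (RefSeq on GRCm38.p6, chr5:90890995-90891294, plus strand) is shown because it holds the letters of an NF-kB element (GGGA, any 2 bases and TTCC, on either strand), with the match starting 71 bases before the gene's start and, overlapping it, 70 bases before on the other strand. These letters stood in 1.70% of the promoters of all tested genes, in 3 of 43 of genes called lower (6.98%) and in 1 of 19 of genes called higher (5.26%), and capitals mark them. Ccl2 and Cxcl5 had no entry among the promoters used, so theirs were not read.
Cxcl1: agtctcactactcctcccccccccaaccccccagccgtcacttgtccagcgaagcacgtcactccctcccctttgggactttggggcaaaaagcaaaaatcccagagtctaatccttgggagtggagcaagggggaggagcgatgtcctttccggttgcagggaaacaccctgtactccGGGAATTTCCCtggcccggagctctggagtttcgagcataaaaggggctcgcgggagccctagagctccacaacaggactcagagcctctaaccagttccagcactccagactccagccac

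**Figure D4:**
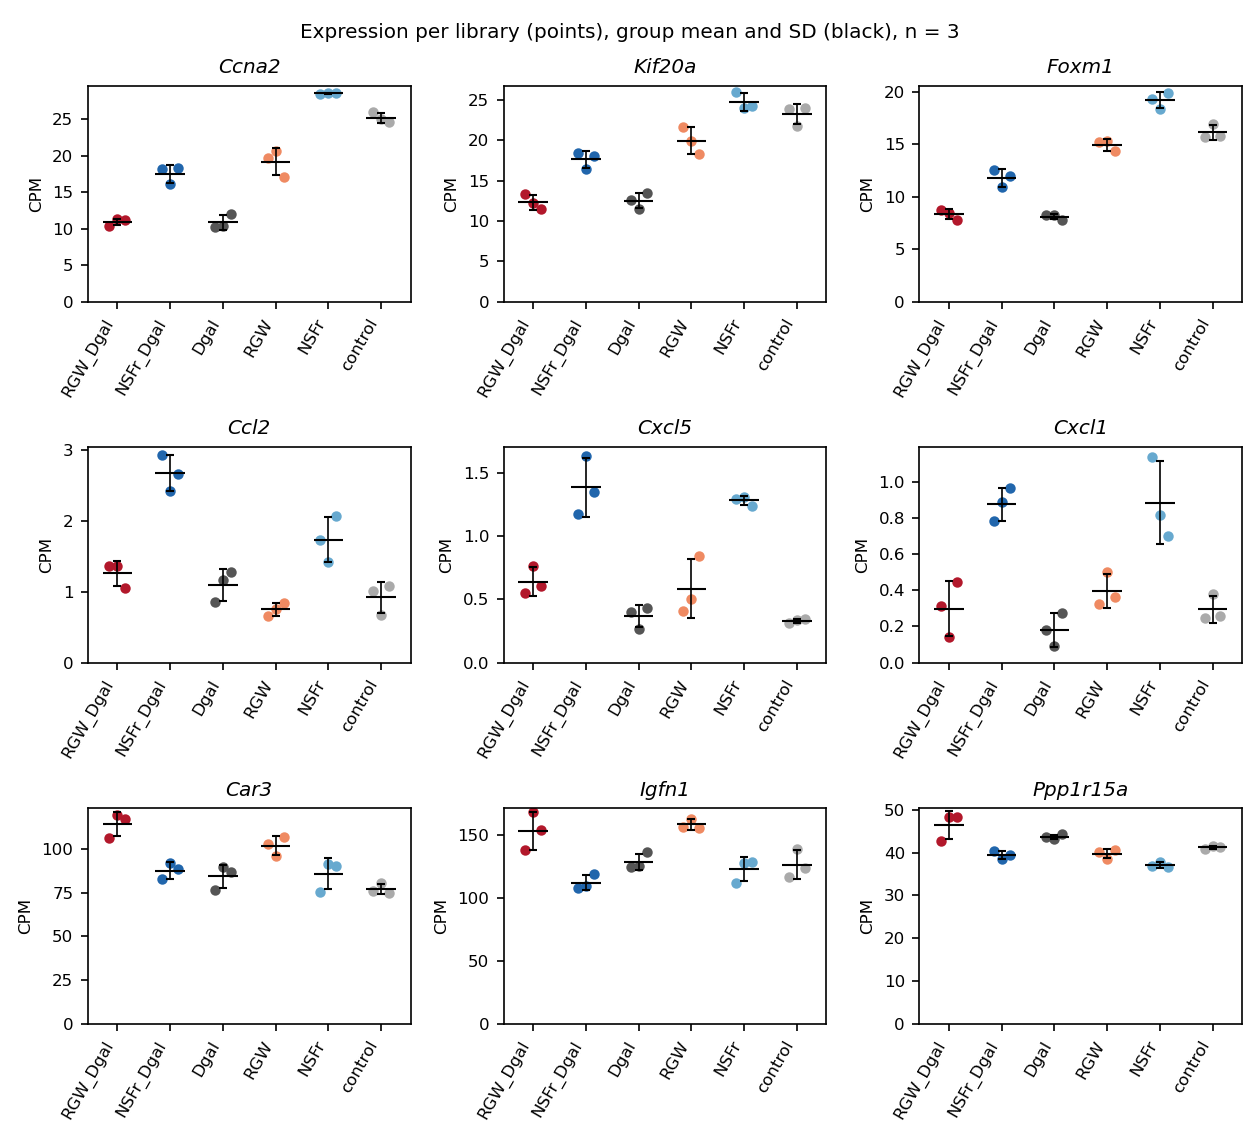
CPM of 9 genes in each library of 6 groups (points), with the group mean and SD in black. Ccna2, Kif20a, Foxm1 and the 3 chemokine genes are lower in RGW_Dgal than in NSFr_Dgal, and Car3, Igfn1 and Ppp1r15a are higher; in the first 6 panels the Dgal points lie near or below those of RGW_Dgal.

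The genes that were higher in RGW_Dgal belonged to no single list. Car3, the muscle carbonic anhydrase (chr3:14863512-14872523), had 107, 119.5 and 117 CPM in RGW_Dgal, against 82.9, 92.0 and 88.7 CPM in NSFr_Dgal. The groups were separated, with a log2 fold change of 0.38 ± 0.063 (edgeR adjusted p = 0.00370). Igfn1, a gene of a muscle protein found at the Z-disc (chr1:135953578-136006342), had 138, 168 and 154 CPM in RGW_Dgal, against 108, 109 and 119 CPM in NSFr_Dgal (0.45 ± 0.099, adjusted p = 0.0357). Its call was lost in 6 of the 13 alternatives. Id3, an inhibitor of helix-loop-helix factors that responds to BMP signals, had 23.9, 21.7 and 22.7 CPM in RGW_Dgal, against 18.0, 18.4 and 16.8 CPM in NSFr_Dgal (0.36 ± 0.073). Bmp4, a ligand of that pathway chosen after its values were seen, was also called higher (0.23 ± 0.050, adjusted p = 0.0211). Itga10, an integrin of collagen binding, had 19.7, 19.8 and 20.0 CPM in RGW_Dgal, against 14.3, 16.1 and 16.5 CPM in NSFr_Dgal (0.34 ± 0.083). Ppp1r15a, which helps to end the integrated stress response, had 42.7, 48.4 and 48.3 CPM in RGW_Dgal, against 40.3, 38.6 and 39.4 CPM in NSFr_Dgal (0.24 ± 0.043, adjusted p = 0.00513). None of these genes overlapped between the groups.

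Foxq1, a forkhead factor, had 9.76, 9.87 and 9.99 CPM in RGW_Dgal, against 6.99, 8.01 and 7.36 CPM in NSFr_Dgal (0.40 ± 0.088). Fzd8, a Wnt receptor, had 9.33, 7.53 and 7.97 CPM in RGW_Dgal, against 5.90, 5.86 and 6.86 CPM in NSFr_Dgal (0.41 ± 0.097), and Sfrp2, a secreted Wnt modulator, had 79.1, 79.7 and 77.0 CPM in RGW_Dgal, against 64.1, 70.5 and 65.8 CPM in NSFr_Dgal (0.23 ± 0.048). In all 3 the RGW_Dgal libraries lay above the NSFr_Dgal libraries, although Fzd8 and Foxq1 stayed under 10 CPM. Slc5a5, the sodium iodide symporter (0.38 ± 0.090), Col25a1, a transmembrane collagen with a part in muscle innervation (0.33 ± 0.070), and Plekhh1 (0.23 ± 0.049) were also among the 12 largest rises that met the naming rule. Of these 12 rises Car3 was the only one called with each of the 6 libraries left out in turn. Sfrp2 was the 1 of 22 Wnt and Notch feedback genes called, Id3 the 1 of 20 TGF-beta and SRF genes, and Ppp1r15a the 1 of 29 genes of the amino acid and ATF4 stress response. Yy2, chosen after its values were seen, had 1.95, 2.23 and 2.62 CPM in RGW_Dgal, against 0.547, 0.613 and 1.77 CPM in NSFr_Dgal and a log2 fold change of 1.22 ± 0.26. It is a retroposed relative of Yy1, so reads of the pair may be divided wrongly, and replicate 3 of NSFr_Dgal lay close to the RGW_Dgal values. Akirin1, a nuclear cofactor in myoblasts also chosen after its values were seen, had the second smallest p among the rises, with 201, 203 and 204 CPM in RGW_Dgal, against 177, 182 and 178 CPM in NSFr_Dgal (0.18 ± 0.032, adjusted p = 0.00494).

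Of 42 sarcomere genes 0 were called, with a median log2 fold change of 0.028, of 22 genes of excitation-contraction coupling 0 (0.077) and of 14 myogenic regulators 0 (-0.0065). At an unadjusted p under 0.05, 6 sarcomere genes and 8 coupling genes were higher and 0 lower. Over all 12184 tested genes, 565 were higher and 561 lower at that level. With the trend against transcript length removed, 1 sarcomere gene and 2 coupling genes were called higher and 1 myogenic regulator lower. The all-gene counts of that alternative, which also rose, are given with the main calls. Myh3, the embryonic myosin heavy chain, had 3326, 3359.7 and 3395 CPM in RGW_Dgal, against 3263, 3429 and 3482 CPM in NSFr_Dgal, with a log2 fold change of -0.013 ± 0.043. The groups overlapped closely. Myog, the myogenin gene, had 1105, 1163 and 1261 CPM in RGW_Dgal, against 1098, 1075 and 1070.4 CPM in NSFr_Dgal (0.12 ± 0.047, edgeR adjusted p = 0.359). Ttn and Neb, the titin and nebulin genes, had 0.54 ± 0.28 and 0.46 ± 0.24. Both have long transcripts, a class that differed between libraries of the same group as described above. The part of that difference in their values was not tested. Chrnd, the delta subunit of the acetylcholine receptor, came nearest to a call (0.12 ± 0.031, adjusted p = 0.0653). Of 22 atrophy genes 1 was called: the metallothionein gene Mt2, a member of a family of close copies, was lower, with 31.3, 34.9 and 33.5 CPM in RGW_Dgal, against 40.6, 47.5 and 43.3 CPM in NSFr_Dgal (-0.40 ± 0.077). The muscle ubiquitin ligase genes did not pass. Fbxo32 had 160.5, 158 and 139 CPM in RGW_Dgal, against 142, 151 and 147 CPM in NSFr_Dgal and overlapped between the groups (0.055 ± 0.049). Trim63 had 54.0, 52.3 and 54.0 CPM in RGW_Dgal, against 48.1, 47.1 and 47.2 CPM in NSFr_Dgal, groups that did not overlap, and a log2 fold change of 0.17 ± 0.061 (edgeR adjusted p = 0.276).

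Of the 38 pathway lists, 28 held no called gene. Beside the lists above, single members passed in a few. Dhcr7, which acts late in cholesterol synthesis, was the 1 of 20 genes of that list called, and was higher with 188, 193 and 199.7 CPM in RGW_Dgal, against 172, 172 and 173 CPM in NSFr_Dgal (0.17 ± 0.037); the list's median was 0.031. Insig1, a sterol sensor, had 0.13 ± 0.043 and did not pass (adjusted p = 0.217). Of 29 extracellular matrix genes, 2 were lower: Sparc, a collagen-binding matrix protein, had 3705, 3562 and 3734 CPM in RGW_Dgal, against 4199, 3968 and 3971 CPM in NSFr_Dgal (-0.14 ± 0.034), and Col18a1 had -0.22 ± 0.046. Tfrc, the transferrin receptor, had 738, 723 and 701 CPM in RGW_Dgal, against 789, 821 and 819 CPM in NSFr_Dgal (-0.17 ± 0.039) and was the 1 of 13 iron genes called. These falls were small, though the libraries were separated. Antioxidant genes under NRF2 (0 of 25 called, median -0.0041), removal of superoxide and peroxide (0 of 15, -0.028), nuclear oxidative phosphorylation (0 of 30, -0.017), glycolysis (0 of 23, -0.024) and galactose and polyol metabolism (0 of 11, -0.054) held no called gene. Of 32 ribosomal protein genes 0 were called (median -0.073), although 30 were negative and 2 positive. Over all 12184 tested genes, 6070 were negative. The summed level of the list was 14321, 14127 and 15427 CPM in RGW_Dgal, against 15756, 15169 and 14914 CPM in NSFr_Dgal, groups that overlapped. Rps26, which is not in that list and was chosen after its values were seen, was called lower with 197, 200.3 and 216 CPM in RGW_Dgal, against 259, 255 and 239 CPM in NSFr_Dgal, but ribosomal protein genes have many near-identical pseudogenes and the value is uncertain.

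Of 15 single genes picked from earlier results of these data, 3 were called, all lower in RGW_Dgal: Ccnb2 and Cxcl5, described above, and Cdhr1. The libraries of the groups did not overlap in 7 of the 15, 3 lower and 4 higher in RGW_Dgal. Over all tested genes, 8.22% were separated downwards and 7.49% upwards. Rgcc, a regulator of the cell cycle, had 5.85, 7.88 and 8.21 CPM in RGW_Dgal, against 6.83, 7.12 and 6.97 CPM in NSFr_Dgal, and Slc16a6, a monocarboxylate transporter family gene, had 9.56, 8.51 and 9.66 CPM in RGW_Dgal, against 9.02, 9.81 and 10.0 CPM in NSFr_Dgal. Both overlapped, with log2 fold changes of 0.069 ± 0.12 and -0.061 ± 0.082. In Dgal, Rgcc had 12.5, 13.4 and 13.7 CPM and Slc16a6 13.1, 14.8 and 14.8 CPM, above all 6 libraries of the pretreated groups. Enpp2, the autotaxin gene, had 12.3, 13.6 and 11.4 CPM in RGW_Dgal, against 10.2, 13.8 and 11.3 CPM in NSFr_Dgal, and 7.77, 7.45 and 8.32 CPM in Dgal, so both preparations lay above Dgal and did not differ between them by more than their spread. Aldh3a1, a target of the aryl hydrocarbon receptor and of NRF2, had a log2 fold change between the preparations of 0.16 ± 0.10, Col23a1, a transmembrane collagen, -0.10 ± 0.066 and Atf4, the stress factor, 0.095 ± 0.047. None of these 6 genes was called between RGW_Dgal and NSFr_Dgal. Cdhr1, a cadherin-related gene, was called: it had 17.6, 19.4 and 19.0 CPM in RGW_Dgal, against 28.9, 23.8 and 24.5 CPM in NSFr_Dgal, and 39.6, 34.5 and 37.2 CPM in Dgal. None of the 3 groups overlapped, RGW_Dgal was lowest, and the log2 fold change between the preparations was -0.46 ± 0.080 (edgeR adjusted p = 0.00425).

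The same preparations were compared without D-galactose in other libraries, RGW over NSFr, where 499 genes were called (4.1%), 216 higher (1.77%) and 283 lower (2.32%). Of the 78 genes called under D-galactose, 50 were called there too, which is 64.1% of the 78 and 10.0% of the 499, and all 50 had the same direction. The sign matched for 72 of the 78 (92.3%), against 63.1% of all tested genes. In the proliferation list 22 of 28 genes were lower and 0 higher in RGW than in NSFr, with a median log2 fold change of -0.40. Their summed level was 385, 380.1 and 319 CPM in RGW, against 507, 472 and 452 CPM in NSFr. Again no library of RGW reached those of NSFr. Ccna2 had 19.7, 20.7 and 17.1 CPM in RGW, against 28.4, 28.5 and 28.6 CPM in NSFr (-0.57 ± 0.069, edgeR adjusted p = 2.00e-05). Ccl2 had 0.651, 0.750 and 0.846 CPM in RGW, against 1.73, 1.42 and 2.06 CPM in NSFr (-1.20 ± 0.21), and Cxcl5 had 0.407, 0.500 and 0.846 CPM in RGW, against 1.24 to 1.31 CPM over the NSFr libraries (-1.13 ± 0.24). Both were separated. In the secretion list, 6 of 27 genes were lower and 1 higher, and 8 of 30 S phase genes were lower.

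**Figure D5:**
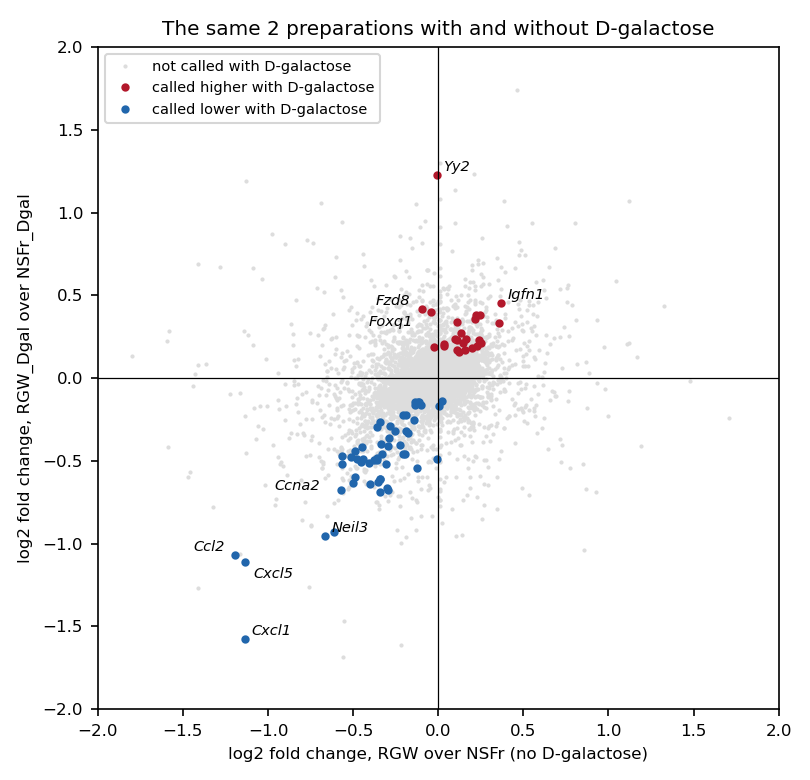
Log2 fold change of RGW over NSFr without D-galactose (horizontal) against RGW_Dgal over NSFr_Dgal (vertical), which share no library; each point is a gene, and 14 genes lie outside the axes. Of the genes called under D-galactose (colours), 72 of 78 lie in the quadrants of equal sign; Ccl2, Cxcl5 and Cxcl1 lie lowest and Yy2, Fzd8 and Foxq1 lie above 0 with no like value on the horizontal axis.

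Whether D-galactose altered the difference between the preparations was tested with an interaction term. The labels of the groups without D-galactose give 12 h of treatment and do not say whether those cultures were held for the later 24 h, so D-galactose and any added culture time cannot be told apart in this term. It called 0 genes (0%) by edgeR and 0 by DESeq2, with 621 genes at an unadjusted p under 0.05 (454 by DESeq2) and a smallest adjusted p of 0.649. For Ccna2 the interaction was -0.11 ± 0.11 log2 units and for Ccl2 0.12 ± 0.28. The missed threshold does not show that the differences were equal. Of the genes called under D-galactose, Foxq1 had an interaction of 0.45 ± 0.12 (unadjusted p = 9.98e-04) and Fzd8 of 0.51 ± 0.14 (unadjusted p = 7.91e-04). Without D-galactose Fzd8 had 6.19, 7.36 and 6.93 CPM in RGW, against 7.11, 7.50 and 7.30 CPM in NSFr, and these overlapped. The smallest p among genes that met the naming filters belonged to Hmgb2, a chromatin protein of the HMG family. It had 16.9, 19.0 and 18.0 CPM in RGW_Dgal, against 17.3, 15.8 and 16.6 CPM in NSFr_Dgal, and 18.0, 17.2 and 17.2 CPM in RGW, against 20.1, 21.8 and 21.5 CPM in NSFr. RGW was lower than NSFr without D-galactose (-0.28 ± 0.065, edgeR adjusted p = 0.0140), and the groups overlapped with it (0.12 ± 0.067). The interaction was 0.40 ± 0.093 (unadjusted p = 1.65e-04). Scarf2 (0.29 ± 0.068), Fkbpl (-0.44 ± 0.11), Ybx1, an RNA-binding protein gene (0.25 ± 0.064), Glod4 (-0.21 ± 0.054) and Basp1 (0.32 ± 0.083) followed, none of them called.

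The saponin fraction, which the non-saponin fraction by its name leaves out, was given alone in 3 other libraries, and the pure saponin Rb2 in 3 more; both are set against the vehicle control and share no library with the main comparison. SFr over control called 5251 genes (43.1%), 2590 higher (21.3%) and 2661 lower (21.8%), so a shared call there says little about any one gene. Of the 54 genes lower in RGW_Dgal, 44 were called lower and 6 higher after SFr. Ccna2 had a log2 fold change of -1.44 ± 0.077 in SFr over control and Foxm1 of -1.09 ± 0.081. The chemokine genes had the opposite sign to that between RGW_Dgal and NSFr_Dgal: in SFr over control Ccl2 was higher by 1.25 ± 0.19, Cxcl5 by 3.22 ± 0.23 and Cxcl1 by 2.50 ± 0.29. Mt2 was higher too (1.70 ± 0.076). Rb2 over control called 187 genes (1.53%), 70 higher (0.575%) and 117 lower (0.96%); Ccna2 had 0.20 ± 0.067 there and Ccl2 -0.055 ± 0.23, neither of them called. Of the 54 genes, 1 was called lower and 3 higher after Rb2. Their sign there matched that of the main comparison for 12 of the 54 (22.2%), against 48.6% of all tested genes. In the proliferation list 2 of 28 genes were called higher and 0 lower after Rb2. Of the 28, 27 were positive and 1 negative, with a median log2 fold change of 0.17, opposite in sign to the main comparison. Rb2 was dosed in µM and the fractions by mass, so these values stand side by side and were not compared.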

How the data were processed

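RNA was measured in 30 libraries of C2C12 myotubes, 3 in each of 10 groups, from poly(A) RNA in directional libraries, per the labels' protocols. The authors deposited RSEM 1.3.3 expected counts for each gene, not normalized, made with the build GRCm38 and the tools FastQC 0.11.9, Trim Galore 0.6.10 and STAR 2.7.9a, per the submitters' processing notes. RSEM shares a read among the genes it could come from, and 19.4% of the values were not whole. Which annotation and strand setting RSEM was run with is not stated in the labels, so values of overlapping and antisense genes are uncertain.

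Expected counts were rounded to whole numbers and tested with edgeR 4.0.16 (quasi-likelihood F-test, robust, TMM scaling, filterByExpr) in R 4.3.3, in a single model of 10 groups over all 30 libraries. The filter kept 12184 of 16025 genes. The biological coefficient of variation was 4.25%. Totals over the 30 libraries were 22209229 to 30218353 counts. Called genes had an adjusted p under 0.05 (Benjamini-Hochberg, over all tested genes). The error beside a log2 fold change is its standard error, worked out from the F statistic. Coordinates came from GENCODE vM21 (GRCm38), which matched 16021 of the 16025 symbols.

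Genes were named where the adjusted p was under 0.05, the mean over the 6 libraries at least 5 CPM and the groups without overlap. The 12 largest rises and 12 largest falls were taken, leaving out predicted genes. Of these, 1 is not reported here. Up to 4 called members of each list with several calls, the 6 genes of smallest p in the interaction and a set of single genes were added. The comparison, the 38 pathway lists, 7 marker lists and the single genes were chosen with earlier results of these data known. Lists are described by counts and medians, without a set test. The alternatives tried were DESeq2 1.42.0, RLE scaling, all genes unfiltered, a replicate block, fits with only the groups compared or without the 6 saponin fraction libraries, each library left out in turn, and removal of the trend against transcript length. The fit was also tried on simulated data built from the gene means and spread of the main fit. The outcome is not given here.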

Additional observations from a re-analysis of the deposited data

How the results depend on the processing

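The main comparison gave 79 calls under RLE scaling, 75 with genes unfiltered, 101 by DESeq2 and 77 without the 6 saponin fraction libraries, against 78. A fit with only the groups compared gave 29 calls for RGW_Dgal over NSFr_Dgal, 272 for RGW over NSFr (27.6% of them higher, against 43.3% in the fit of all libraries), 348 for RGW_Dgal over Dgal and 106 for Rb2 over control; it called 6 proliferation genes and 1 of the 3 chemokine genes, with fewer residual degrees of freedom. Removing the trend against transcript length, chosen after seeing the data, gave 157, 828, 983 and 333 calls for the same comparisons and 1278 for NSFr_Dgal over Dgal; the interaction stayed at 0 calls. Leaving out single libraries, which leaves 2 in a group, gave 13 to 53 calls in the main comparison, 195 to 384 for RGW over NSFr, 0 to 1 for the interaction, 342 to 453 for RGW_Dgal over Dgal, 353 to 624 for NSFr_Dgal over Dgal, 4549 to 4927 for SFr over control, 115 to 209 for Rb2 over control, 4 to 16 proliferation genes and 2 to 3 of the chemokine genes. Of the genes called then, 38 of 47 without RGW_Dgal replicate 3 and 13 of 13 without NSFr_Dgal replicate 1 were among the 78. Some uncalled genes changed sign as libraries were left out, with log2 fold changes of -0.020 (without RGW_Dgal replicate 3) to 0.21 for Rgcc, -0.11 to 0.00046 (without RGW_Dgal replicate 2) for Slc16a6, -0.046 to 0.0069 (without NSFr_Dgal replicate 3) for Myh3 and -0.021 (without NSFr_Dgal replicate 1) to 0.21 for Enpp2. The causes of these shifts were not tested. Same-numbered libraries of RGW_Dgal and NSFr_Dgal had deviations with correlations of -0.031, 0.013 and -0.123, and 1 of 6 libraries correlated best with their own number. These values showed no pairing by number, but they cannot tell whether same-numbered libraries were made together. With the replicate number as a block there were 75 calls, and 15 proliferation and 3 chemokine genes were called as before. Genes under a few CPM, the chemokines among them, rest on few counts.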

Other observations

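Values of further gene groups that held no called member between RGW_Dgal and NSFr_Dgal are given here without a test of the groups. Of 8 tested glucose-responsive and arrestin genes, 0 were called, 4 were higher at an unadjusted p under 0.05, and the median log2 fold change was 0.15. Txnip, an arrestin family gene that responds to sugar, had 317, 326 and 332 CPM in RGW_Dgal, against 293, 283 and 294 CPM in NSFr_Dgal (0.17 ± 0.047, edgeR adjusted p = 0.102), and its groups did not overlap. Of 25 immediate early genes, 0 were called, with 7 higher and 2 lower at an unadjusted p under 0.05. With the trend against transcript length removed, 3 of them were called higher and 2 lower. That alternative also called more genes over all tested genes, as given with the main calls. Klf2, a factor that responds to flow and statins in other cells, came nearest, with 13.5, 13.3 and 13.2 CPM in RGW_Dgal, against 9.92, 10.9 and 11.0 CPM in NSFr_Dgal (0.33 ± 0.083, edgeR adjusted p = 0.0557). Of the lower genes, Ier3, an early response gene, had -0.29 ± 0.080 (edgeR adjusted p = 0.0940) and Egr3, a zinc finger factor, -0.13 ± 0.037 (edgeR adjusted p = 0.0967). Over all tested genes 565 were higher and 561 lower at an unadjusted p under 0.05.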
